A study of Mus musculus with 12 samples.

Results

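The laminin and integrin chain genes were examined in smooth muscle-rich tissue of mice with and without an induced deletion of *Yap1* and *Wwtr1* (the gene for TAZ). They were chosen by name alone, as every gene whose symbol is that of a laminin alpha, beta or gamma chain or of an integrin alpha or beta chain, and they numbered 37 of the 54532 genes in the expression tables. Of these, 11 encoded laminin chains (5 alpha, 3 beta and 3 gamma) and 26 encoded integrin chains (18 alpha and 8 beta). Each was a protein-coding gene of GENCODE M21 at the coordinates given in the tables (mouse build GRCm38).

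Laminins are the trimers from which basement membranes are assembled, each made of 1 alpha, 1 beta and 1 gamma chain that join before secretion. Integrins are the receptors through which cells hold on to laminin and other matrix proteins, each made of 1 alpha and 1 beta chain that span the plasma membrane and bind the actin cytoskeleton or intermediate filaments through adaptor proteins. Every smooth muscle cell of the gut and bladder is wrapped in a basement membrane, and so is the base of the overlying epithelium, although the chains differ between these places. YAP and TAZ are transcriptional coactivators that act mainly through TEAD factors and respond to adhesion and tension.

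Distal colon and urinary bladder were taken from 9 male mice aged 5 to 7 weeks, and 12 libraries were sequenced, 3 per genotype in each tissue. All mice carried floxed *Yap1* and *Wwtr1* alleles and received tamoxifen (1 mg per mouse per day in 5 injections). Y/T KO mice also carried Myh11-CreERT2, a tamoxifen-activated Cre driven by the promoter of the smooth muscle myosin heavy chain gene, whereas Ctrl mice were Cre-negative, and tissue was collected on day 7 after the first injection. Values are given below in the order of the mice. For the colon these were 788, 786 and 787 (Ctrl) and 759, 783 and 780 (Y/T KO), and for the bladder 784, 785 and 788 (Ctrl) and 782, 783 and 780 (Y/T KO). The libraries were made from whole tissue, which also holds epithelium, vessels, nerves and leukocytes, so fewer cells of a type and less RNA per cell cannot be told apart.

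Expression is given as TPM, a transcript's share of all transcripts after division by transcript length, so levels can be compared between chains. The comparison of genotypes within a tissue asked which chain genes changed after the deletion. It used limma on log2(TPM + 0.1), a scale that understates the change of genes near 0, with Benjamini-Hochberg adjustment over all genes tested, and a gene was called at an adjusted p under 0.05. Of all genes tested, 0.137% were called between genotypes in the colon and 0.302% in the bladder. *Itgad*, which encodes the alpha D chain of a leukocyte integrin, was listed at 0 in 9 libraries and at 0.0226, 0.0545 and 0.0473 TPM in the Y/T KO bladder and was not tested. The other 36 chain genes were tested in every comparison. For a single value, 3 libraries per group allow an exact permutation p (two-sided) of no less than 0.1. A value in parentheses beside an SE is a log2 fold change of Y/T KO over Ctrl unless named otherwise.

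Aligned sequence ran from 2.80 to 3.94 gigabases per library. *Yap1* stood at 101, 98.6 and 110 TPM in Ctrl bladder, against 71.3, 69.4 and 72.1 TPM in the Y/T KO bladder (a log2 fold change of -0.54, SE 0.08, adjusted p = 0.0625), while in the colon its genotypes overlapped (-0.17, SE 0.14, adjusted p = 0.697). *Wwtr1* showed no decrease with the Y/T KO label (log2 fold change 0.18 for colon, 0.24 for bladder), and the genotype of a library is that of its label. The summed TPM of 12 smooth muscle markers was 8773 to 9617 in Ctrl colon and 5735 to 6739 in Y/T KO colon, and 39213 to 52452 in Ctrl bladder and 20394 to 37288 in Y/T KO bladder, and all 12 markers had a negative log2 fold change in both tissues. Of 8 pancreatic acinar markers, *Cela2a*, *Cela3b*, *Cpa1*, *Pnlip* and *Prss2* were at 0.531 to 21.8 TPM in Ctrl colon, against 0 to 0.202 TPM in the Y/T KO colon, and passed the filter on low values there through the Ctrl libraries alone. *Cela1*, the most abundant of the 8, was at 514 to 736 TPM in Ctrl colon and at 616 to 770 TPM in Y/T KO colon. The sum of the 8 therefore overlapped (521 to 806 and 617 to 772 TPM). Of the 7 tested in the colon, 6 had a negative log2 fold change and 1 a positive one. The bladders of Y/T KO mice 783 and 780 also held more of 7 skeletal muscle markers (4670 and 5606 TPM in sum, against 1264 to 1847 in the other 4 bladders). Of the 7, *Myh4* was at 409 and 432 TPM in these bladders and at 46.1 TPM in that of Ctrl mouse 784. It was listed at 0 in the bladders of mice 785, 788 and 782. The bladder of Ctrl mouse 785 had the highest sum of 12 leukocyte markers (2689 TPM, against 1548 to 2504 in the other 5). The part of these differences in the results below was not tested.

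Among the laminin chains, *Lamc1* (ENSMUSG00000026478, chromosome 1 of GRCm38 from 153218922 to 153332786, minus strand) had the lowest Y/T KO values relative to Ctrl in the bladder. It encodes gamma 1, the gamma chain shared by most laminins, including those around muscle cells. Bladder levels were 239, 256 and 290 TPM in Ctrl, against 149, 144 and 119 TPM in the Y/T KO mice. Every Y/T KO library was below every Ctrl library, and the mean went from 261 ± 17.5 to 137 ± 16.7 rescaled TPM (SD, n = 3). *Lamc1* fell by 0.93 on the log2 scale (SE 0.11, limma adjusted p = 0.0410), a 1.91-fold decrease, and it was the 1 chain gene of 36 called in the bladder in either direction, where 0.302% of all genes were. *Gm38009* overlaps *Lamc1* on the same strand, so reads could be divided between them. Other chain genes also have same-strand overlaps, among them *Lama3* (*Gm29201*) and *Lamb3* (*4930570N18Rik* and *Gm37691*).

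The *Lamc1* call in the bladder stood close to the threshold and was lost when any single bladder library was left out (log2 fold change -1.0 to -0.83, adjusted p 0.0618 to 0.190). Without the bladders of Y/T KO mice 783 and 780, in which the skeletal muscle markers were high, the log2 fold change was -0.86 with an adjusted p of 0.263, from a single Y/T KO library. That library, from mouse 782, had a smooth muscle marker sum of 37288 TPM, near the lowest Ctrl value of 39213 TPM, and a *Lamc1* level of 149 TPM against 239 TPM in the lowest Ctrl library. These are values of a single library, and the part of smooth muscle content in the *Lamc1* difference was not tested.

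In the colon, *Lamc1* stood at 77.7, 88.8 and 72.3 TPM in Ctrl, against 49.4, 51.2 and 45.4 TPM in the Y/T KO mice. The genotypes again did not overlap, with means of 78.3 ± 2.81 and 49.3 ± 2.39 rescaled TPM (SD, n = 3). The log2 fold change was -0.67 (SE 0.12, adjusted p = 0.143). The gene was not called from the 6 colon libraries, but it was called when all 12 libraries shared 1 estimate of the spread (-0.69, adjusted p = 0.0268) and when the mouse was added to that fit as a block (-0.69, adjusted p = 0.0268). Between the tissues, no difference in its log2 fold change was detected (difference 0.24, SE 0.16, interaction adjusted p = 0.547).

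**Figure D1:**
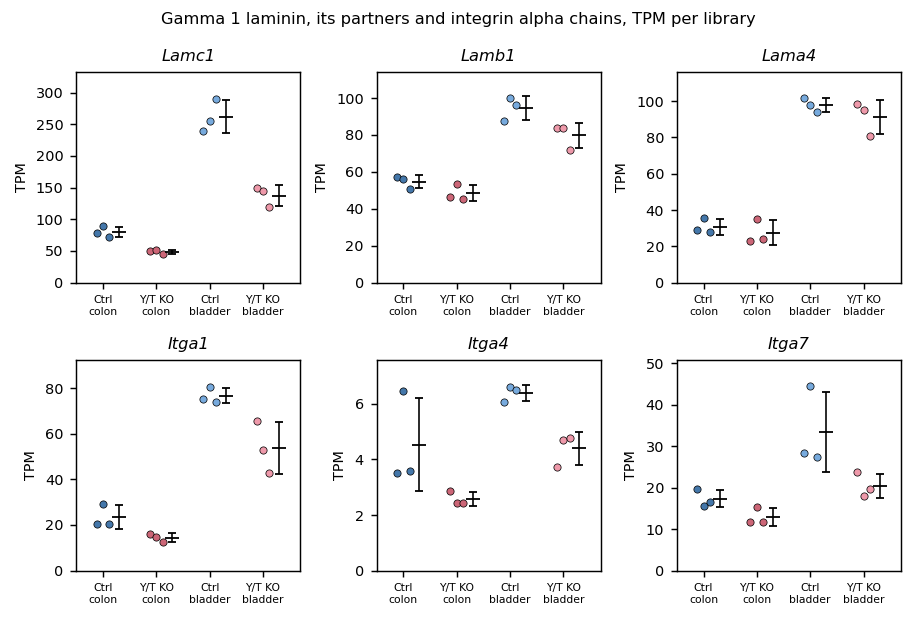
TPM of *Lamc1*, of a beta and an alpha laminin chain that join it, and of 3 integrin alpha chains in each library (points), with the mean ± SD of each group of 3 libraries (dash and bar). In both tissues every Y/T KO point of *Lamc1*, *Itga1*, *Itga4* and *Itga7* lies below every Ctrl point, while the genotypes of *Lama4* overlap.

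*Lamc3*, which encodes gamma 3, was at 0.294 to 1.70 TPM in the colon (log2 fold change -1.32, SE 0.50, adjusted p = 0.487, with overlap) and at 3.51 to 6.27 TPM in the bladder (-0.02, SE 0.28).

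Of the beta chains, *Lamb1* and *Lamb2* encode the chains that pair with gamma 1 in muscle and vessel basement membranes. *Lamb1* stood at 87.4, 100 and 96.1 TPM in Ctrl bladder, against 83.9, 83.5 and 71.9 TPM in the Y/T KO bladder (a log2 fold change of -0.25, SE 0.10, adjusted p = 0.329), a difference without overlap that was smaller than that of *Lamc1*. In the colon *Lamb1* ran from 50.5 to 57.0 TPM in Ctrl, and from 45.5 to 53.3 TPM in the Y/T KO mice (-0.14, SE 0.13, adjusted p = 0.740). *Lamb2* ran from 82.7 to 91.6 TPM in Ctrl bladder and from 62.4 to 90.7 TPM in the Y/T KO bladder (-0.26, SE 0.14, adjusted p = 0.435), and from 19.3 to 26.3 and 15.3 to 27.5 TPM in the colon (-0.02, SE 0.25). Its genotypes overlapped in both tissues.

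*Lamb3* encodes a beta chain of epithelial laminin. It stood at 58.5, 45.4 and 55.1 TPM in Ctrl colon, against 62.9, 73.8 and 68.4 TPM in the Y/T KO colon (a log2 fold change of 0.41, SE 0.17, adjusted p = 0.508), without overlap, and the log2 fold change was 0.24 without Ctrl mouse 786. In the bladder its values were 16.2, 20.7 and 24.9 TPM in Ctrl, against 22.4, 14.8 and 15.6 TPM in the Y/T KO mice (-0.23, SE 0.20, adjusted p = 0.621).

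The alpha chains give a laminin its receptor binding. *Lama2* (alpha 2, the muscle chain), *Lama4* (alpha 4, found in vessels and muscle) and *Lama5* (alpha 5, found in most adult basement membranes) had overlapping genotypes in both tissues. *Lama2* stood at 7.91, 11.7 and 8.09 TPM in Ctrl colon, against 8.42, 11.6 and 7.80 TPM in the Y/T KO colon (a log2 fold change of 0.04, SE 0.22), and at 30.6, 29.6 and 27.7 and 33.5, 35.4 and 27.2 TPM in the bladder (0.12, SE 0.14). *Lama4* stood at 28.8, 35.7 and 27.7 and 23.1, 35.3 and 23.9 TPM in the colon (-0.14, SE 0.19) and at 101, 97.7 and 93.9 and 98.2, 95.0 and 80.9 TPM in the bladder (-0.10, SE 0.11).

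The values of *Lama5* were more scattered, at 27.3, 12.6 and 19.2 TPM in Ctrl, against 23.2, 20.0 and 24.9 TPM in the Y/T KO colon (0.30, SE 0.30) and at 42.5, 58.6 and 71.3 and 72.3, 46.8 and 54.5 TPM in the bladder (0.02, SE 0.20). Adjusted p-values of these 3 alpha chains ran from 0.697 to 0.978. None of these 3 alpha chains, which can join gamma 1, was separated between genotypes as *Lamc1* was.

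The remaining alpha chains had higher values in each Y/T KO colon than in any Ctrl colon. *Lama1*, the alpha chain of embryonic basement membranes, was scarce, at 0.276, 0.246 and 0.435 TPM in Ctrl colon, against 1.17, 1.31 and 2.17 TPM in the Y/T KO colon. The gene passed the filter on low values in the colon (at least 0.5 TPM in 3 libraries) only through its Y/T KO libraries, so its log2 fold change of 1.98 (SE 0.41) is a description. With a pseudocount of 1 TPM it was 0.95. In the bladder *Lama1* stood at 0.461, 0.831 and 1.01 TPM in Ctrl, against 0.769, 0.785 and 0.343 TPM in the Y/T KO mice (-0.25, SE 0.47).

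*Lama3*, an alpha chain of epithelial laminin, stood at 10.1, 19.2 and 18.3 TPM in Ctrl colon, against 24.4, 27.5 and 24.3 TPM in the Y/T KO colon (0.77, SE 0.24, adjusted p = 0.424), also without overlap, and the value was 0.49 without Ctrl mouse 788. Bladder values ran from 7.64 to 10.3 TPM in Ctrl, and from 6.30 to 9.06 TPM in the Y/T KO mice (-0.24, SE 0.20). *Lama3* and *Lamb3* were thus both higher in every Y/T KO colon than in every Ctrl colon, and neither was called. The summed TPM of 12 markers of colon epithelium, the main site of these chains in the gut, overlapped between genotypes (8975 to 12367 in Ctrl and 9597 to 10961 in Y/T KO). Of the 12, 2 were lower without overlap in Y/T KO colon, against 8.28% of all genes. They were *Car1* (1157 to 1553 TPM in Ctrl, then 300 to 891) and *Vil1* (338 to 370, then 303 to 323), and *Vil1* overlapped in rescaled TPM. Of the 11 markers tested, 6 had a positive log2 fold change and 5 a negative one. The part of the epithelium in the values of *Lama3* and *Lamb3* was not tested.

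**Figure D2:**
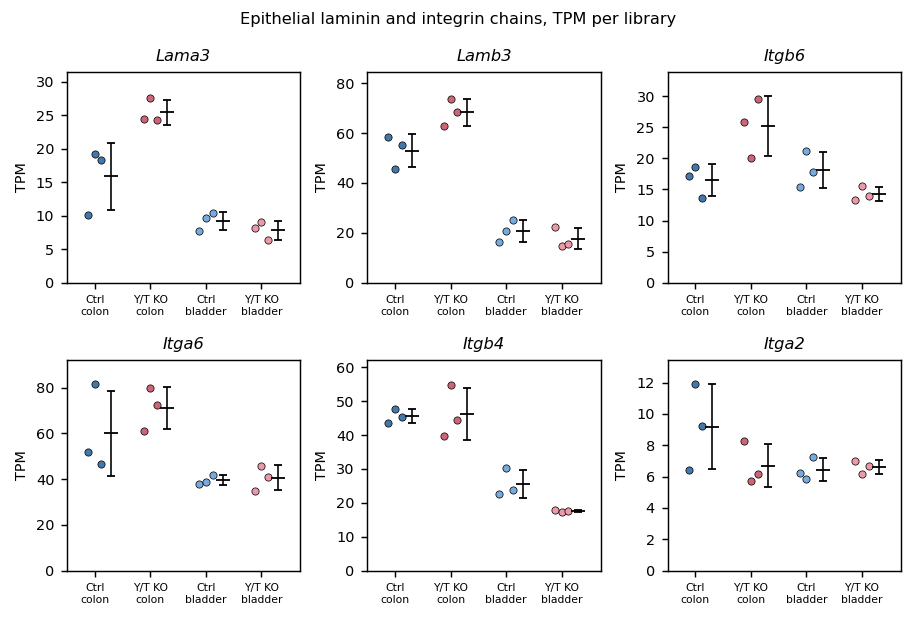
TPM of *Lama3* and *Lamb3* and of 4 epithelial integrin chains in each library (points), with the mean ± SD of each group of 3 libraries (dash and bar). Y/T KO colon lies above Ctrl colon without overlap for *Lama3*, *Lamb3* and *Itgb6*, and Y/T KO bladder lies below Ctrl bladder without overlap for *Itgb4*.

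The integrin alpha chains that bind collagen include alpha 1, a main collagen receptor of smooth muscle. *Itga1* (chromosome 13 from 114953096 to 115101964, minus strand) stood at 20.5, 29.4 and 20.5 TPM in Ctrl colon, against 16.1, 14.7 and 12.5 TPM in the Y/T KO colon (a log2 fold change of -0.65, SE 0.17, adjusted p = 0.360). The bladder libraries gave 75.4, 80.6 and 74.1 TPM in Ctrl, against 65.5, 52.8 and 42.9 TPM in the Y/T KO mice (-0.53, SE 0.15, adjusted p = 0.207). Both tissues were free of overlap, and among the Y/T KO bladders that of mouse 782 was the closest to Ctrl. The gene *Pelo* lies within *Itga1* on the same strand, so reads could be divided between them.

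*Itga4*, whose alpha 4 chain binds VCAM-1 and fibronectin, stood at 3.53, 6.46 and 3.6 TPM in Ctrl colon, against 2.87, 2.44 and 2.44 TPM in the Y/T KO colon (-0.70, SE 0.26, adjusted p = 0.485). In the bladder its values were 6.07, 6.61 and 6.51 TPM in Ctrl, against 3.72, 4.72 and 4.76 TPM in the Y/T KO mice (-0.54, SE 0.18, adjusted p = 0.255). *Lamc1*, *Itga1* and *Itga4* were the 3 chain genes that were lower in both tissues without overlap and with an unadjusted p under 0.05 in each, which held for 0.614% of the 16298 genes tested in both.

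The sequences upstream of the transcription start of *Itga1* and *Itga4* are shown because these genes were lower in both tissues, and those of *Lamb3* and *Itgb6* because they were higher in Y/T KO colon (RefSeq promoter table, GRCm38.p6, 5′ to 3′ on the strand of the gene, trimmed to bases outside annotated exons). They cover chr13:115101965-115102214 (minus strand) for *Itga1*, chr2:79255176-79255425 (plus strand) for *Itga4*, chr1:193301744-193301992 (plus strand) for *Lamb3* and chr2:60722644-60722853 (minus strand) for *Itgb6*. No base is in capitals, because none of the motifs named below was found in them.
Itga1: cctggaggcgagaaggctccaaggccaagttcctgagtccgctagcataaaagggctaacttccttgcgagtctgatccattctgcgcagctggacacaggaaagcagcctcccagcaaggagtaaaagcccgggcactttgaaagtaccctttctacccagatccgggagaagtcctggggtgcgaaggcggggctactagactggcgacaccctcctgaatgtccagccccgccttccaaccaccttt
Itga4: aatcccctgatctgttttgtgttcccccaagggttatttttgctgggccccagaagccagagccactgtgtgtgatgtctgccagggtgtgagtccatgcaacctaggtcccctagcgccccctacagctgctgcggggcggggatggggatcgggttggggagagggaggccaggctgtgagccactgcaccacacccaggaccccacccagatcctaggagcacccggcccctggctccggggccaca
Lamb3: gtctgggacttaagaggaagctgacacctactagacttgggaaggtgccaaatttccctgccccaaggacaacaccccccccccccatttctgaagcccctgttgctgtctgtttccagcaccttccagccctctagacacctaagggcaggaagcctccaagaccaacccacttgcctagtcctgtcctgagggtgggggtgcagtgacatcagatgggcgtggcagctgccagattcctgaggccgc
Itgb6: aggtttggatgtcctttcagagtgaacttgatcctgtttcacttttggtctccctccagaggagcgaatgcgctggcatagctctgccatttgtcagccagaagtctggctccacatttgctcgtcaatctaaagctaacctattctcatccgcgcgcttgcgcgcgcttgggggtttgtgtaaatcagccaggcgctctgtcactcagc

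The promoter table held 26 windows for 23 of the 37 chain genes, and *Lamc1* was not among them. The TEAD motif GGAATG was found on either strand in 3 of the 26 windows (11.54%), in *Itga10*, *Itgb1* and a second start of *Lamb3*, and in 12.64% of all 32841 windows of 250 bases. The AP-1 motif TGANTCA was found in 1 of the 26 (*Itgax*), against 6.751% of all windows. The CArG box, the binding motif of serum response factor, was found in 2 of the 26 (*Lama2* and *Itgb6*), against 1.468% of all windows. The match of *Itgb6* was not within the stretch shown above. These are matches of letters and do not show that a factor was bound.

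Of the other collagen receptors, *Itga11* (alpha 11, a fibroblast chain) stood at 2.27, 3.26 and 2.84 TPM in Ctrl colon, against 1.62, 2.15 and 1.16 TPM in the Y/T KO colon (-0.72, SE 0.29, adjusted p = 0.493), without overlap. Its bladder values ran from 21.5 to 25.3 TPM in Ctrl, and from 15.0 to 24.1 TPM in the Y/T KO mice (-0.20, SE 0.19). *Itga2* (5.70 to 11.9 TPM) and *Itga10* (0.790 to 3.63 TPM) had overlapping genotypes in both tissues, with log2 fold changes from -0.39 to 0.08.

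The laminin receptors have the alpha chains 3, 6 and 7. *Itga7*, the laminin receptor chain of muscle, stood at 19.6, 15.6 and 16.6 TPM in Ctrl colon, against 11.7, 15.3 and 11.6 TPM in the Y/T KO colon (-0.39, SE 0.20, adjusted p = 0.569). The bladder libraries gave 28.3, 44.5 and 27.4 TPM in Ctrl, against 23.6, 18.0 and 19.5 TPM in the Y/T KO mice (-0.68, SE 0.21, adjusted p = 0.227), again without overlap. Its highest value came from Ctrl mouse 785, without which the bladder log2 fold change was -0.46.

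*Itga3*, mostly an epithelial chain, stood at 39.4, 61.9 and 42.4 TPM in Ctrl bladder, against 30.8, 29.8 and 24.2 TPM in the Y/T KO bladder (-0.74, SE 0.20, adjusted p = 0.187), without overlap. In the colon it ran from 44.6 to 48.9 TPM in Ctrl, and from 41.5 to 60.0 TPM in the Y/T KO mice (0.19, SE 0.18). *Itga6*, the hemidesmosome chain that pairs with beta 4, had overlapping genotypes in both tissues (0.32, SE 0.19 in the colon and 0.03, SE 0.14 in the bladder). Its partner *Itgb4* stood at 22.7, 30.4 and 23.6 TPM in Ctrl bladder, against 17.8, 17.2 and 17.7 TPM in the Y/T KO bladder (-0.53, SE 0.14, adjusted p = 0.181), without overlap, and at 39.7 to 54.7 TPM in the colon (0.05, SE 0.15).

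The summed TPM of 10 urothelial markers was 5978 to 6631 in Ctrl bladder and 4936 to 6272 in Y/T KO bladder. *Krt5*, a keratin of basal epithelial cells, was at 423, 586 and 537 TPM in Ctrl bladder, against 289, 285 and 277 TPM in the Y/T KO bladder (-0.85, SE 0.12, adjusted p = 0.0629). Its values were therefore separated in the same direction as those of *Itga3* and *Itgb4*. Of the 10 markers, 2 were lower without overlap, against 10% of all genes, and 2 had a positive log2 fold change. *Trp63*, another of the 10, overlapped (47.0, 46.1 and 66.4 TPM in Ctrl bladder, against 52.8, 45.7 and 41.2 TPM in Y/T KO bladder). The part of these markers in the integrin values was not tested.

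Among the receptors that bind the RGD motif of fibronectin and related proteins, *Itga5* (alpha 5, the fibronectin receptor chain) was separated between the bladder genotypes. Its levels were 212, 410 and 270 TPM in Ctrl bladder, against 143, 131 and 137 TPM in the Y/T KO bladder, where its values were close together. The log2 fold change was -1.06 (SE 0.22, adjusted p = 0.141), and -0.80 (adjusted p = 0.154) without Ctrl mouse 785, which had the highest value. In the colon *Itga5* stood at 77.2, 64.3 and 66.3 TPM in Ctrl, against 56.8, 85.4 and 80.5 TPM in the Y/T KO mice (0.12, SE 0.20, adjusted p = 0.860).

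*Itga8*, whose alpha 8 chain binds nephronectin and is typical of smooth muscle, stood at 4.29, 6.88 and 3.79 TPM in Ctrl colon, against 7.66, 6.63 and 6.47 TPM in the Y/T KO colon (0.54, SE 0.23, adjusted p = 0.510). Its bladder levels were 15.6, 10.8 and 13.2 TPM in Ctrl, against 21.4, 15.6 and 15.2 TPM in the Y/T KO mice (0.39, SE 0.19, adjusted p = 0.386). *Itga8* was thus a smooth muscle chain whose log2 fold change was positive in both tissues, though the genotypes overlapped in each. *Itgav* ran from 4.46 to 25.5 TPM in the colon and from 12.1 to 35.1 TPM in the bladder, and *Itga2b*, the platelet chain, from 0.464 to 8.77 TPM over all libraries, both with overlap in each tissue.

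*Itga9*, whose alpha 9 chain binds tenascin-C, stood at 41.7, 42.7 and 36.2 TPM in Ctrl bladder, against 32.1, 35.8 and 23.2 TPM in the Y/T KO bladder (-0.42, SE 0.19, adjusted p = 0.364). The highest Y/T KO value (mouse 783) lay just under the lowest Ctrl value (mouse 788) in TPM as deposited. In rescaled TPM the genotypes overlapped (size factors 0.960 for Y/T KO mouse 783 and 1.03 for Ctrl mouse 788). The log2 fold change was -0.24 without Y/T KO mouse 780. In the colon *Itga9* stood at 10.3, 15.1 and 10.8 TPM in Ctrl, against 13.5, 13.5 and 10.8 TPM in the Y/T KO mice (0.11, SE 0.18).

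**Figure D3:**
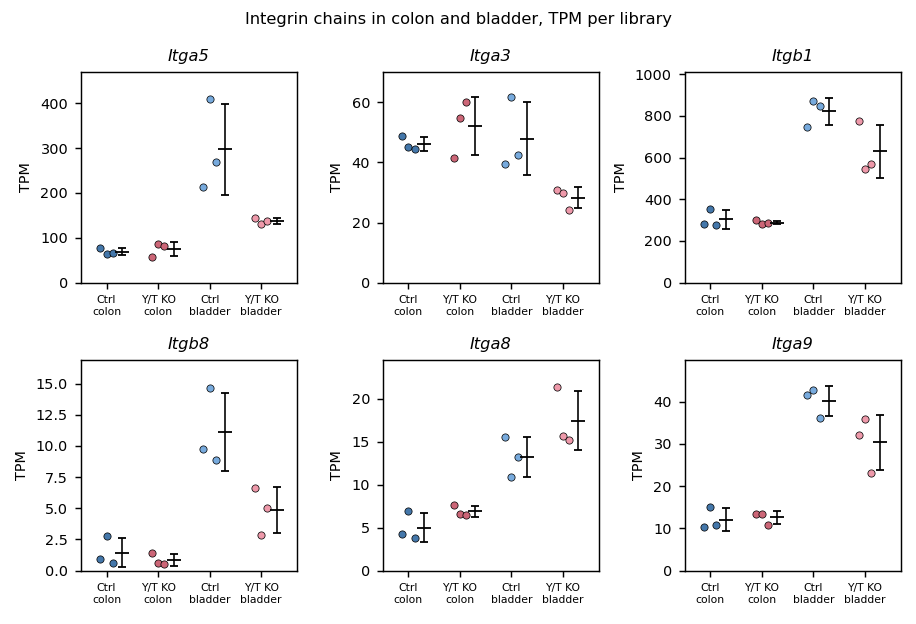
TPM of 6 integrin chains in each library (points), with the mean ± SD of each group of 3 libraries (dash and bar). Y/T KO bladder lies below Ctrl bladder without overlap for *Itga5*, *Itga3*, *Itgb8* and *Itga9*, the genotypes of *Itgb1* overlap, and the colon genotypes overlap in all 6 panels.

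Of the beta chains, *Itgb1* encodes the partner of most alpha chains and was the most abundant chain gene in every library. It stood at 281, 355 and 274 TPM in Ctrl colon, against 298, 282 and 284 TPM in the Y/T KO colon (-0.03, SE 0.13, adjusted p = 0.958). Bladder values were 745, 869 and 848 TPM in Ctrl, against 777, 543 and 571 TPM in the Y/T KO mice (-0.40, SE 0.13, adjusted p = 0.244), with the value of Y/T KO mouse 782 inside the Ctrl range. Its share of the 8 beta chain transcripts was 69.9% to 76.7% in Ctrl bladder and 71.5% to 75.6% in Y/T KO bladder (exact permutation p = 1.0).

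*Itgb8*, which encodes the partner of alpha V in the activation of latent TGF-β, stood at 9.79, 14.7 and 8.90 TPM in Ctrl bladder, against 6.62, 2.88 and 5.06 TPM in the Y/T KO bladder (-1.22, SE 0.33, adjusted p = 0.188), without overlap. Without the bladders of Y/T KO mice 783 and 780 the log2 fold change was -0.75. In the colon *Itgb8* was near the filter on low values, at 0.487 to 2.74 TPM.

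*Itgb6*, an epithelial partner of alpha V, stood at 17.2, 18.7 and 13.6 TPM in Ctrl colon, against 25.9, 20.1 and 29.6 TPM in the Y/T KO colon (0.64, SE 0.19, adjusted p = 0.405), without overlap. Bladder values ran from 15.3 to 21.2 TPM in Ctrl, and from 13.3 to 15.5 TPM in the Y/T KO mice (-0.34, SE 0.16). *Itgb3*, another partner of alpha V, stood at 12.3, 14.4 and 11.1 TPM in Ctrl colon, against 7.96, 10.2 and 7.55 TPM in the Y/T KO colon (-0.52, SE 0.18, adjusted p = 0.461), without overlap, while its bladder genotypes overlapped (-0.79, SE 0.37, and -0.40 without Ctrl mouse 785, which had the highest value, 92.2 TPM). *Itgb5* (43.2 to 114 TPM over all libraries) and *Itgb7* (4.37 to 17.2 TPM) overlapped in both tissues.

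The leukocyte integrins were the alpha chains L, M, X and E and the beta 2 and beta 7 chains. *Itgae*, which marks lymphocytes within the epithelium, stood at 1.28, 1.45 and 1.31 TPM in Ctrl colon, against 2.53, 1.93 and 2.45 TPM in the Y/T KO colon (0.76, SE 0.26, adjusted p = 0.447), without overlap. *Itgax*, a chain of dendritic cells and macrophages, stood at 4.5, 6.0 and 5.34 TPM in Ctrl colon, against 6.62, 7.43 and 7.92 TPM in the Y/T KO colon (0.51, SE 0.19, adjusted p = 0.487), also without overlap. Both overlapped in the bladder. Of 12 leukocyte markers, 3 were also higher in every Y/T KO colon than in every Ctrl colon, namely *Cd3e* (1.40 to 1.54 TPM in Ctrl, then 2.06 to 2.72), *Cd3g* (2.04 to 2.95, then 3.37 to 4.29) and *C1qa* (105 to 134, then 144 to 231). Of all genes, 7.52% were higher in the colon in this way, and 3 of the 12 markers had a negative log2 fold change. The summed TPM of the 12 overlapped (812 to 1595 in Ctrl and 1064 to 1425 in Y/T KO colon), and their part in the values of *Itgae* and *Itgax* was not tested.

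*Itgam* and *Itgb2*, which form the integrin of myeloid cells, varied more between libraries of 1 group than between genotypes. *Itgam* stood at 37.2, 102 and 58.8 TPM in Ctrl bladder, against 42.8, 24.4 and 41.0 TPM in the Y/T KO bladder, and *Itgb2* at 35.3, 110 and 57.6 and 46.9, 24.6 and 36.8 TPM. The high Ctrl value of each came from mouse 785, whose leukocyte marker sum was the highest of the bladders. *Gm49368* overlaps *Itgam* on the same strand, so reads could be divided between them. *Itgal* was at 1.72 to 5.20 TPM over all libraries. Its bladder genotypes did not overlap, at 4.37 to 5.20 TPM in Ctrl, against 2.56 to 4.35 TPM in the Y/T KO mice (-0.48, SE 0.22, adjusted p = 0.378).

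Counted over the 36 tested chain genes, 0 were called in the colon by limma, with 6 lower and 8 higher by an unadjusted p under 0.05. At that level 5.14% of all genes were higher and 4.59% lower. *Lama1*, which was tested in the colon through its Y/T KO libraries alone, is among the 8 and among the 7 given below without overlap. In the bladder 1 was called, with 0 higher and 11 lower at an unadjusted p under 0.05, against 6.64% and 8.20% of all genes. In TPM as deposited, the genotypes did not overlap for 7 chain genes that were higher and 6 that were lower in Y/T KO colon (7.52% and 8.28% of all genes). In Y/T KO bladder this held for 0 that were higher and 11 that were lower (10.4% and 10% of all genes).

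The chain genes had a median log2 fold change of 0.02 (colon) and -0.26 (bladder), and in the bladder 27 of 36 were negative. The medians over all genes were 0.006 and 0.002. Without the bladders of Y/T KO mice 783 and 780 the bladder median was -0.20, and 3 chain genes were lower at an unadjusted p under 0.05. Without the bladder of Ctrl mouse 785 the median was -0.21 and the count 7.

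**Figure D4:**
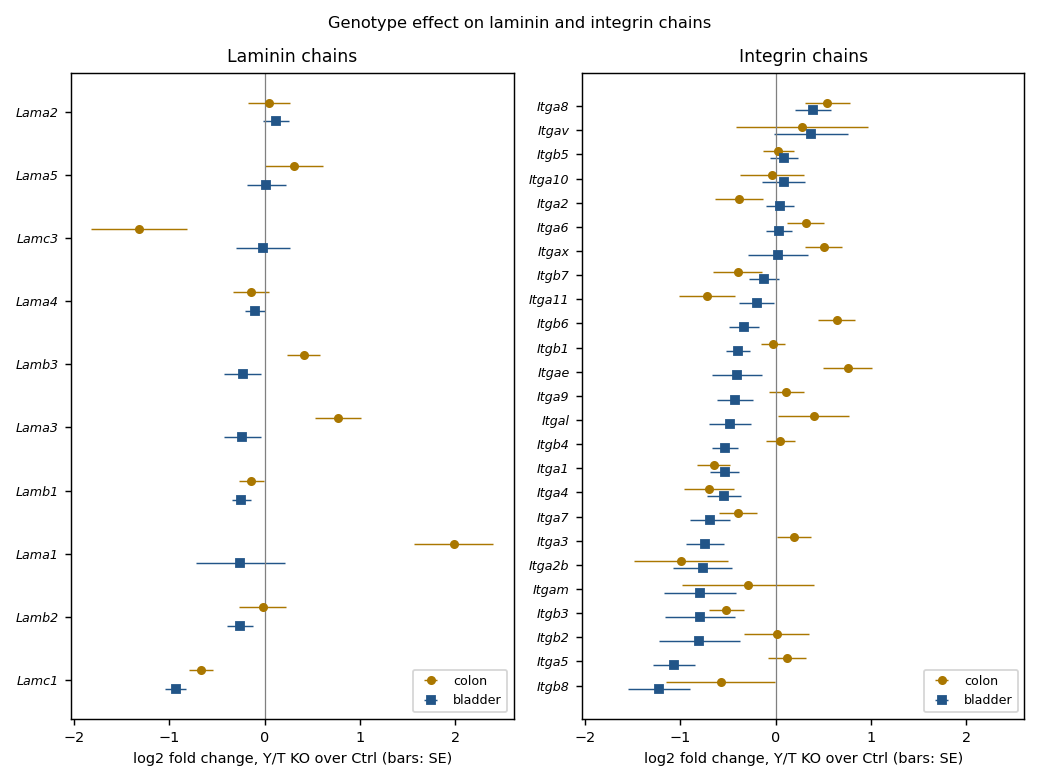
Log2 fold change of Y/T KO over Ctrl (horizontal axis, bars are SE) for 35 of the 36 tested laminin and integrin chain genes (vertical axis, ordered by the bladder value), in colon (circles) and bladder (squares). In the bladder 26 of the 35 values are negative and *Lamc1* is the 1 called gene, while in the colon 18 are positive and 17 negative with none called.

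Whether the chain genes responded differently in the 2 tissues was tested by the interaction of tissue and genotype over all 12 libraries, in which 0.0552% of all genes were called. Of the 36 chain genes, 0 were called by limma, and at an unadjusted p under 0.05 the log2 fold change was higher in the colon for 9 and lower for 1 (7.03% and 5.61% of all genes). Among the 9 were *Itgb6* (difference 0.95, SE 0.25), *Itga5* (1.16, SE 0.31), *Itga3* (0.91, SE 0.27), *Itgae* (1.14, SE 0.34), *Lama3* (0.98, SE 0.33), *Itgb4* (0.55, SE 0.20) and *Lamb3* (0.62, SE 0.27), and the 1 that was lower was *Lamc3* (-1.34, SE 0.60). Their adjusted p ran from 0.226 to 0.384. *Lama1* (2.24, SE 0.60) was also among the 9, but its value rests on the Y/T KO colons through which it passed the filter there.

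The genes around the chains were described from lists of their binding partners. Of 14 other basement membrane genes, 11 (colon) and 14 (bladder) were tested, and 0 were called in either by limma, with 3 higher in the colon and 5 lower in the bladder at an unadjusted p under 0.05 (5.14% and 8.20% of all genes). *Col15a1*, a collagen of muscle and vessel basement membranes, stood at 108, 110 and 117 TPM in Ctrl bladder, against 75.3, 65.2 and 58.6 TPM in the Y/T KO bladder (-0.76, SE 0.10, adjusted p = 0.0545). *Col4a1*, a collagen IV chain, had the largest difference in the colon, at 63.8, 122 and 64.0 TPM in Ctrl, against 120, 231 and 114 TPM in the Y/T KO mice (0.92, SE 0.32, adjusted p = 0.461), with overlap. The largest negative value of the list in the colon was that of *Agrn* (-0.07), and the largest positive value in the bladder was that of *Col4a3* (0.41), both with overlap.

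Of 11 other integrin ligands, 10 were tested in each tissue. *Tnc* (tenascin-C, a ligand of alpha 9 and alpha V integrins) stood at 47.6, 48.9 and 49.0 TPM in Ctrl colon, against 99.6, 91.0 and 102 TPM in the Y/T KO colon, and it rose by a log2 of 1.04 (SE 0.13, limma adjusted p = 0.0446). Among bladder ligands it was the one with the lowest log2 fold change, at 81.3, 132 and 129 TPM in Ctrl, against 83.3, 87.8 and 56.5 TPM in the Y/T KO mice (-0.58, SE 0.24, adjusted p = 0.331). The difference between the tissues was 1.60 (SE 0.28, interaction adjusted p = 0.0967).

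*Madcam1*, the gut vessel ligand of alpha 4 beta 7, stood at 1.59, 1.58 and 2.56 TPM in Ctrl colon, against 5.4, 5.17 and 5.46 TPM in the Y/T KO colon (1.51, SE 0.28, adjusted p = 0.143), and was listed at 0 in all 6 bladders. *Itga4* and *Itgb7*, the chains of its receptor, had negative log2 fold changes in the colon (-0.70 and -0.40). *Npnt* (nephronectin) had the highest log2 fold change of the ligands in the bladder, with 8.62, 8.30 and 8.29 TPM in Ctrl, against 9.87, 14.4 and 11.0 TPM in the Y/T KO mice (0.46, SE 0.19, adjusted p = 0.329). *Spp1* (osteopontin) had the most negative value in the colon (-1.26, SE 1.16), from libraries that ran from 5.48 to 205 TPM.

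Of 23 adaptors that link integrins to the cytoskeleton or to signaling, all were tested. In the colon 1 was called lower by limma, and by an unadjusted p under 0.05 there were 4 lower and 0 higher (4.59% and 5.14% of all genes). In the bladder 0 were called, and 12 were lower and 0 higher (8.20% and 6.64% of all genes). *Lims2*, which encodes PINCH-2, a partner of integrin-linked kinase, stood at 28.4, 26.9 and 27.8 TPM in Ctrl colon, against 5.43, 9.52 and 7.76 TPM in the Y/T KO colon, and fell by 1.86 on the log2 scale (SE 0.23, limma adjusted p = 0.0409). The bladder libraries gave 109, 160 and 94.2 TPM in Ctrl, against 61.5, 39.7 and 40.2 TPM in the Y/T KO mice (-1.35, SE 0.24, adjusted p = 0.103).

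*Fermt3* in the colon (0.63, SE 0.31) and *Tln2* in the bladder (0.16, SE 0.23) had the most positive values of the adaptors, with overlap. Of 4 hemidesmosome partners, 0 were called in either tissue. Their log2 fold changes ran from -0.08 (*Dst*) to 0.26 (*Cd151*) in the colon and from -0.54 (*Cd151*) to 0.10 (*Dst*) in the bladder.

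The comparison of tissues asked which chains differed between colon and bladder without the deletion and whether this held with it. In Ctrl, 24 of the 36 chain genes were called lower and 5 higher in the colon, where 25.3% of all genes were called lower and 25.1% higher (50.4% in either direction). The median log2 difference of colon minus bladder was -1.07 for the chain genes and 0.01 for all genes. The smooth muscle marker sum was also lower in Ctrl colon (8773 to 9617 TPM against 39213 to 52452), as was that of 8 fibroblast markers (2236 to 2896 TPM against 10203 to 12629), and the part of tissue makeup in the chain values was not tested.

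The 5 chain genes with the largest differences toward the bladder in Ctrl were *Itgb8* (-2.85, SE 0.50), *Itga11* (-2.74, SE 0.24), *Itgam* (-2.15, SE 0.63), *Itgb3* (-1.83, SE 0.30) and *Itga2b* (-1.81, SE 0.43), with adjusted p from 2.78e-06 to 0.0150. *Itga11* stood at 2.27 to 3.26 TPM in Ctrl colon, against 21.5 to 25.3 TPM in Ctrl bladder, a 6.69-fold difference. *Lamc1* (-1.46, SE 0.11), *Lama2* (-1.42, SE 0.19), *Lama4* (-1.41, SE 0.16), *Lamb2* (-1.69, SE 0.21), *Itgb1* (-1.18, SE 0.12) and *Itga5* (-1.79, SE 0.22) were also called lower in the colon. All 14 basement membrane partners were called lower there as well.

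The 5 chain genes called higher in Ctrl colon were *Lamb3* (log2 difference 1.63, SE 0.19, adjusted p = 2.48e-05), *Itgb4* (1.1, SE 0.14), *Lama3* (0.99, SE 0.23), *Itga6* (0.82, SE 0.18) and *Itga2* (0.73, SE 0.21, adjusted p = 0.0132). The call of *Itga2* was lost with TPM as deposited (0.47, adjusted p = 0.111).

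**Figure D5:**
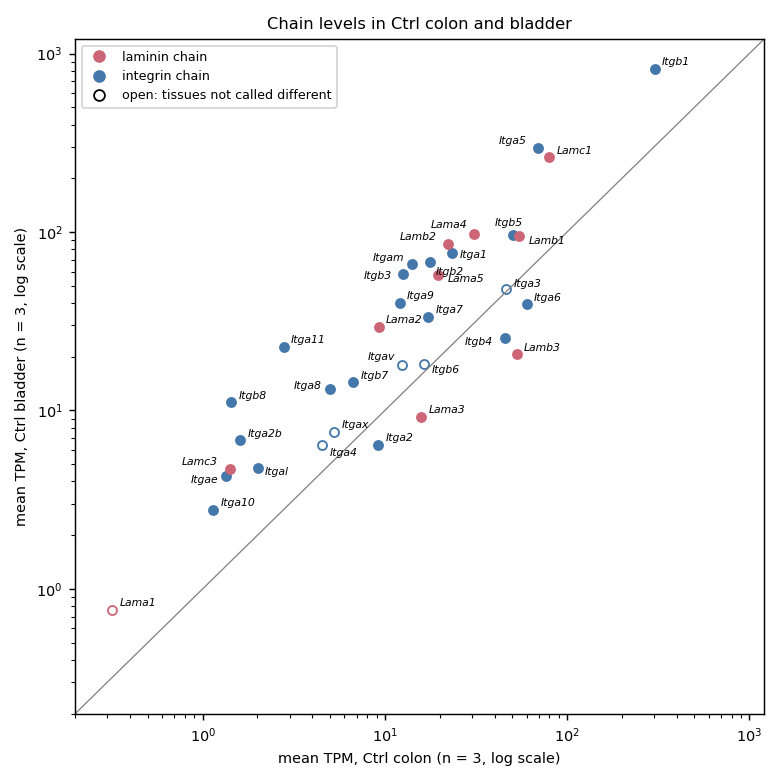
Mean TPM of 35 of the 36 tested chain genes in Ctrl colon (horizontal, log scale) and Ctrl bladder (vertical, log scale), 3 libraries each, with the line of equal levels. Most chains lie above the line, 24 of them called, while *Lamb3*, *Itgb4*, *Lama3*, *Itga6* and *Itga2* lie below it.

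In Y/T KO mice, 20 chain genes were called lower and 8 higher in the colon, where 25.6% of all genes were called lower and 25.8% higher (51.3% in either direction). The counts ran from 18 to 22 lower and from 7 to 8 higher over the alternatives. Of the 20 and the 8, 20 lower and 4 higher (*Itga6*, *Itgb4*, *Lama3* and *Lamb3*) had the same call in Ctrl. *Itga3*, *Itgb6* and *Lama1* were called higher in Y/T KO colon than in Y/T KO bladder (log2 differences 1.15, 1.08 and 1.44) and were not called in Ctrl, and *Itga2*, *Itga7*, *Itgae*, *Itgal* and *Itgb2* were called in Ctrl and not in Y/T KO. None of these 8 genes was called in the interaction, which tests such a change itself. *Itga4*, *Itgav* and *Itgax* were called in neither genotype.

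The order of the chains by level was led by *Itgb1*, *Itga5* and *Lamc1* in Ctrl bladder, where *Itga5* (212 to 410 TPM) and *Lamc1* (239 to 290 TPM) overlapped. In Ctrl colon *Itgb1* (274 to 355 TPM) was followed by *Lamc1* (72.3 to 88.8 TPM) and *Itga5* (64.3 to 77.2 TPM), which again overlapped. The summed TPM of the 11 laminin chains was 653 to 736 in Ctrl bladder and 480 to 596 in Y/T KO bladder, without overlap, and 300 to 323 in Ctrl colon and 300 to 338 in Y/T KO colon.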

How the data were processed

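Stranded libraries of polyadenylated RNA from colon and urinary bladder were sequenced. The authors' processing notes name bcl2fastq, FastQC, HISAT2, StringTie, DESeq2 and build GRCm38. The TPM and FPKM values deposited by the authors are divided by transcript length and library size and hold no read counts, so the count test could not be run. The deposited coverage signal (reads per base) gave the aligned gigabases per library. Counting error was not estimated.

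TPM was summed by gene identifier, divided by median-of-ratios size factors and filtered (at least 0.5 TPM in at least 3 libraries). The log2 of TPM + 0.1 was fitted with limma 3.58.1 in R 4.3.3 (trend and robust options), within a tissue for genotype and over 12 libraries for tissue and interaction, with two-sided p-values. Values of a single library were not rescaled, and overlap between groups was judged on them. A gene can therefore overlap in TPM as deposited and not in rescaled TPM, or the reverse. The labels give the mouse of each library, and 3 mice gave both tissues. Colon and bladder deviations of the same mouse correlated at -0.009, 0.067 and 0.044 across genes. Alternatives were other pseudocounts and filters, TPM as deposited, FPKM, no trend or robust option, 1 fit of 12 libraries, the mouse as a block, and each library left out. The fits were tested on simulated data.

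Every library is given for chain genes that were called, that did not overlap with an unadjusted p under 0.05, or that belong to muscle and pericellular basement membrane. For the tissues, the 5 with the largest change each way are named, and of the partner lists the called and the most extreme genes. The chain genes and all lists were chosen with earlier results of these data known, and *Krt5* was named after its values were seen. 1 chain gene is counted but not reported here. Figures were made with matplotlib 3.10.9.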

Additional observations from a re-analysis of the deposited data

How the results depend on the processing

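The number of chain genes called lower in the colon was 1 in place of 0, *Lamc1*, with 12 libraries in 1 fit and with the mouse as a replicate block in that fit. The number called lower in the bladder was 0 in place of 1 without the filter (*Lamc1* adjusted p = 0.0520), with TPM as deposited (0.0563), without the trend or robust options (0.10), without the 2 skeletal muscle-rich bladders (an alternative chosen after seeing the data) and with each library left out (0 to 0). The cause was not tested, beyond the fewer samples or greater number of genes tested in some of these fits. It was 1 with the other alternatives, among them FPKM (adjusted p = 0.0359) and 12 libraries in 1 fit (0.00706), or with the block (0.00663). The mouse as a block changed no other call. Calls of *Itgam* between the tissues in Y/T KO were lost without the filter (adjusted p = 0.0529), without the trend or robust options (0.0514) and with each of 7 single libraries left out, and between the tissues in Ctrl without Ctrl colon 787 (0.0594) or Ctrl bladder 785 (0.0589). Chain genes called lower in Y/T KO colon than in Y/T KO bladder numbered 22 (and 7 higher) with TPM as deposited, 19 without the trend or robust options and 18 to 21 with single libraries left out, and in Ctrl 21 to 24 with single libraries left out. Without the skeletal muscle-rich bladders, uncalled bladder log2 fold changes moved for *Itga1* (-0.28), *Itgb1* (-0.13), *Itgb3* (-0.47), *Itga4* (-0.82) and *Itga8* (0.65), and without Ctrl bladder 785 for *Itgb6* (-0.21). Without the skeletal muscle-rich bladders the bladder log2 fold changes of *Itga11* (0.032), *Lama1* (0.017), *Lamb2* (0.031) and *Lamb3* (0.094) turned positive. With single libraries left out, uncalled values changed sign in the colon for *Itgb1* (-0.057 to 0.028), *Itgb4* (-0.070 to 0.16), *Lama2* (-0.12 to 0.16), *Lama5* (-0.043 to 0.59) and *Lamb2* (-0.20 to 0.22), in the bladder for *Itga11* (-0.31 to 0.0056), *Itgax* (-0.19 to 0.32), *Lama1* (-0.52 to 0.078) and *Lama5* (-0.16 to 0.16), and in the interaction for *Itga4* (-0.32 to 0.043) and *Itgb3* (-0.13 to 0.54). With 3 mice per group, most chain genes had an SE of the log2 fold change above 0.15, and the smallest exact permutation p was 0.1. Partner and marker genes were computed under the settings of the report alone.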

Other observations

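The adaptors named here were chosen after their values were seen. *Vcl* (vinculin) had 85.5, 95.6 and 75.0 TPM in Ctrl colon, where the Y/T KO libraries had 64.2, 56.8 and 48.6 (-0.56 on the log2 scale, SE 0.14, limma adjusted p = 0.333), and 321, 357 and 289 TPM in Ctrl bladder, where they had 226, 190 and 168 (-0.73, SE 0.13, adjusted p = 0.106). *Tln1* (talin 1, which binds integrin beta tails) had 99.5, 142 and 105 TPM in Ctrl bladder and 78.5, 59.6 and 54.1 after the knockout (-0.85, SE 0.18, adjusted p = 0.141), and *Ilk* (integrin-linked kinase) had 427, 564 and 495 and then 401, 336 and 314 TPM (-0.50, SE 0.13, adjusted p = 0.175). *Src*, a kinase at integrin adhesions, had 55.1, 62.3 and 63.5 TPM in Ctrl bladder and 37.5, 42.5 and 40.3 after the knockout (-0.59, SE 0.10, adjusted p = 0.103). None of these 4 was called. In the colon *Tln1* ran from 35.6 to 40.8 TPM in Ctrl and from 27.1 to 37.9 TPM in Y/T KO, with overlap. *Src* ran from 51.4 to 56.5 and from 49.2 to 61.8 TPM there, also with overlap, and *Ilk* from 154 to 177 and from 134 to 152 TPM. *Lims1*, the PINCH-1 gene and paralog of *Lims2*, had 47.1, 68.5 and 50.7 TPM in Ctrl colon, where the Y/T KO libraries had 18.4, 34.4 and 22.4 (-1.14, SE 0.24, adjusted p = 0.222). Its bladder genotypes overlapped, at 68.5 to 89.5 TPM in Ctrl and 43.9 to 70.6 TPM in Y/T KO.

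*Col18a1*, a basement membrane collagen, had 19.8, 20.9 and 18.4 TPM in Ctrl colon and 23.6, 38.7 and 47.8 after the knockout (0.87, SE 0.25, adjusted p = 0.385), and 82.0, 79.2 and 75.5 TPM in Ctrl bladder with 71.1, 60.4 and 53.5 after it (-0.36, SE 0.12, adjusted p = 0.246). The genotypes were separated in opposite directions in the tissues, a difference of 1.22 (SE 0.30, interaction adjusted p = 0.203) that was not called.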
